A study of Mus musculus with 12 samples.

Results

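Potassium channel genes were taken as every gene of the deposited expression table whose symbol begins with Kcn and a further letter, which gave 98 of the 26190 genes. None of these symbols carried the number in brackets that marks a repeated locus in the table. A count of 10 or more in at least 3 libraries was reached by 78 of the 98 (79.6%), and these are called expressed below. By function the expressed genes were 26 of 30 pore-forming subunits of voltage-gated channels, 8 of 10 modifier subunits of such channels, 15 of 17 accessory subunits and 12 of 15 inward rectifiers. They also included 8 of 14 two-pore channels, 7 of 8 channels gated by calcium or sodium and 2 of 4 non-coding RNAs named after a channel gene. RNA-seq was performed on 12 libraries in 4 groups of 3 replicates. Atria and ventricles came from wild-type C57BL/6 mouse hearts dissected at E11.5 (E11.5H). Atrium-like and ventricle-like parts were cut by hand from heart organoids (HOs) at day 13 of culture, which were grown from wild-type mouse embryonic stem cells through embryoid bodies on a gel of laminin and entactin with FGF4, and later also with BMP4, BIO and LIF. The labels give C57BL/6 for the HOs too, while the study used several stem cell lines, and the line behind each library and the number of hearts or HOs per library are not given in the sources used here. No group carried a transgene or a deletion.

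Potassium channels let potassium ions leave the cell and so set the resting potential and end the action potential. In cardiomyocytes, inward rectifiers of the Kir2 type hold the resting potential, the GIRK channel built from Kcnj3 and Kcnj5 answers vagal acetylcholine in atria and the pacemaker, and voltage-gated channels such as Kcna5, Kcnd2, Kcnh2 and Kcnq1 repolarize the membrane in sequence. Accessory subunits of the Kcne, Kcnip, Kcnab and Kcnmb families carry no current of their own and tune the pores they bind.

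Between 23971258 and 30540993 fragments per library were assigned to genes. Levels are given as FPKM, fragments per kilobase of transcript scaled to library size, as deposited, in the order of replicates 1, 2 and 3, while fold changes come from the fragment counts. The 16 cardiomyocyte genes used as markers were detected in every library, but their summed level was 15653 to 18161 FPKM in atria and 18109 to 18519 FPKM in ventricles of E11.5H against 338 to 1279 FPKM in atrium-like and 1903 to 4607 FPKM in ventricle-like parts. Nppa, which marks early atrial and trabecular muscle, was at 1925 to 3058 FPKM in E11.5H and at 0.528 to 8.75 FPKM in HOs. Each HO library held RNA of genes that mark other tissues. Endoderm genes such as Afp were highest in atrium-like replicates 1 and 3 and ventricle-like replicate 3, where the 6 genes of the list summed to 11775, 4011 and 4189 FPKM, against at most 3.71 FPKM in E11.5H. Neural genes were highest in ventricle-like replicate 2, at 319 FPKM over 6 genes, and the skeletal muscle factors Myod1 and Myog reached at least 10.2 FPKM in replicate 2 of both parts, against 3.42 and 7.95 FPKM in atria replicate 3. In E11.5H, erythroid genes were highest in ventricle replicate 3, at 53207 FPKM over 5 genes against 5540 to 14205 FPKM in the other 5 libraries. The variation between replicates, as the common biological coefficient of variation of edgeR, was 0.211 in E11.5H and 0.677 in HOs. In such bulk samples, fewer cells of a type and less RNA per cell cannot be told apart.

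Start-site windows are shown for the genes with the clearest embryonic atrial excess among well expressed members (Kcna5, Kcnj3 and Kcnj5), for Kcnj2, the main Kir2 gene of these hearts, and for Kcnk1, the most abundant member in atrium-like parts. Each window holds 300 bases of GRCm38.p6 from RefSeq, 5′ to 3′ on the gene's strand, with 250 bases before the transcription start and 50 from it. They are chr6:126535506-126535805 (minus strand) for Kcna5, chr2:55435720-55436019 (plus) for Kcnj3, chr9:32344295-32344594 (minus) for Kcnj5, chr11:111065914-111066213 (plus) for Kcnj2 and chr8:125994852-125995151 (plus) for Kcnk1. Capitals mark GC boxes, the only one of the motifs searched that was found in these 5 windows.
Kcna5: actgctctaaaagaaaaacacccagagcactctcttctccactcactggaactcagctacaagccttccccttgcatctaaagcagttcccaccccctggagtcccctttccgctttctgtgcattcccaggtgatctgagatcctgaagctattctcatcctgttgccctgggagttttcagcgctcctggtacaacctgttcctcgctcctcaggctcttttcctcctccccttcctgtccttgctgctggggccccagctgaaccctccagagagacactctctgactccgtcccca
Kcnj3: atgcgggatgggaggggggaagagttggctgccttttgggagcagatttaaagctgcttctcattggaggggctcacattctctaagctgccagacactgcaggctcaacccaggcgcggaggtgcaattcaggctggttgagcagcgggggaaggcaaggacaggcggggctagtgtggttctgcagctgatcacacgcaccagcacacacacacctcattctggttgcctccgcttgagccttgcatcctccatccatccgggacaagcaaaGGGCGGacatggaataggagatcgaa
Kcnj5: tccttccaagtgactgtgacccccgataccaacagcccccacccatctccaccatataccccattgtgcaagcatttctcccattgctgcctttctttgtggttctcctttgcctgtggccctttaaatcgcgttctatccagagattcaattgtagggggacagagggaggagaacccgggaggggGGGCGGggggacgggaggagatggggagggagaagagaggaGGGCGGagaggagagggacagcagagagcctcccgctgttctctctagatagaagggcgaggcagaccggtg
Kcnj2: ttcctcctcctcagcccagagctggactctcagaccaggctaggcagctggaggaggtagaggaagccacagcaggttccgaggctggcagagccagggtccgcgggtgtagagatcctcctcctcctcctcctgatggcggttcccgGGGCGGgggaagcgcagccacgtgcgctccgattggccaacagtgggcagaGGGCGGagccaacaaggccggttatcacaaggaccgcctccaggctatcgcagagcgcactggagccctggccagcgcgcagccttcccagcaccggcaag
Kcnk1: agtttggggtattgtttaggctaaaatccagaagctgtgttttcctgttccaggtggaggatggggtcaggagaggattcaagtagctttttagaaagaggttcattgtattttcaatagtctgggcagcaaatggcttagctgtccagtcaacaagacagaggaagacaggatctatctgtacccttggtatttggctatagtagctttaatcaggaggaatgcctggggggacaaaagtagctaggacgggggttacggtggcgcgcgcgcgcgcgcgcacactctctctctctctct
Each motif was searched on both strands. The GC box, GGGCGG, stood in 35.7% of the 32851 mouse windows of this length and in 46 of the 97 windows (47.4%) of the 72 potassium channel genes with an entry. The GATA letters AGATAA were found in 11.2% of all windows and in 4 of the 97. The T-box letters GGTGTGA were found in 3.98% and in 6, the NKX2-5 letters TNAAGTG in 3790 windows and in 8. A TATA box, spelled TATAAA, stood in 13.6% of all windows and in 5 of the 97. The median GC content was 58.0% over the 97 windows and 52.7% over all windows. Within the 5 windows printed, GC content ran from 49.0% for Kcnk1 to 66.7% for Kcnj2.

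In every library of E11.5H the most abundant member was Kcng2, a modifier subunit that forms no channel alone and joins voltage-gated pores of another family. Kcng2 reached 43.6, 40.2 and 45.0 FPKM in atria and 59.9, 62.8 and 59.9 FPKM in ventricles, so the chambers did not overlap. The next in atria were Kcne1l (also named Kcne5), an accessory subunit, at 29.9 ± 2.66 FPKM, Kcna5 at 22.0 ± 2.39 FPKM and Kcnj5 at 21.6 ± 1.12 FPKM (SD, n = 3 each). Kcne1l lay above Kcna5 in each atrial library, whereas the ranges of Kcna5 and Kcnj5 overlapped. In ventricles, Kcnk3, a two-pore leak channel, came second at 22.2 ± 1.48 FPKM, followed by Kcne1l at 17.7 ± 0.147, Kcne1 at 12.5 ± 0.590 and Kcnh2 at 11.4 ± 1.001 FPKM (SD, n = 3 each). The ranges of Kcne1 and Kcnh2 overlapped in ventricles. All 98 members summed to 212 to 226 FPKM in atria and 185 to 194 FPKM in ventricles, and the 5 most abundant took 59.1% to 66.2% of that sum. In HOs the sum was lower, at 51.5, 117 and 88.8 FPKM in atrium-like parts and 131, 139 and 146 FPKM in ventricle-like parts, and the leading gene differed between libraries. It was Kcnk1 in atrium-like replicates 1 and 3, Kcnj8 in atrium-like replicate 2, Kcnh2 in ventricle-like replicate 1, and Kcng2 in ventricle-like replicates 2 and 3.

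**Figure D1:**
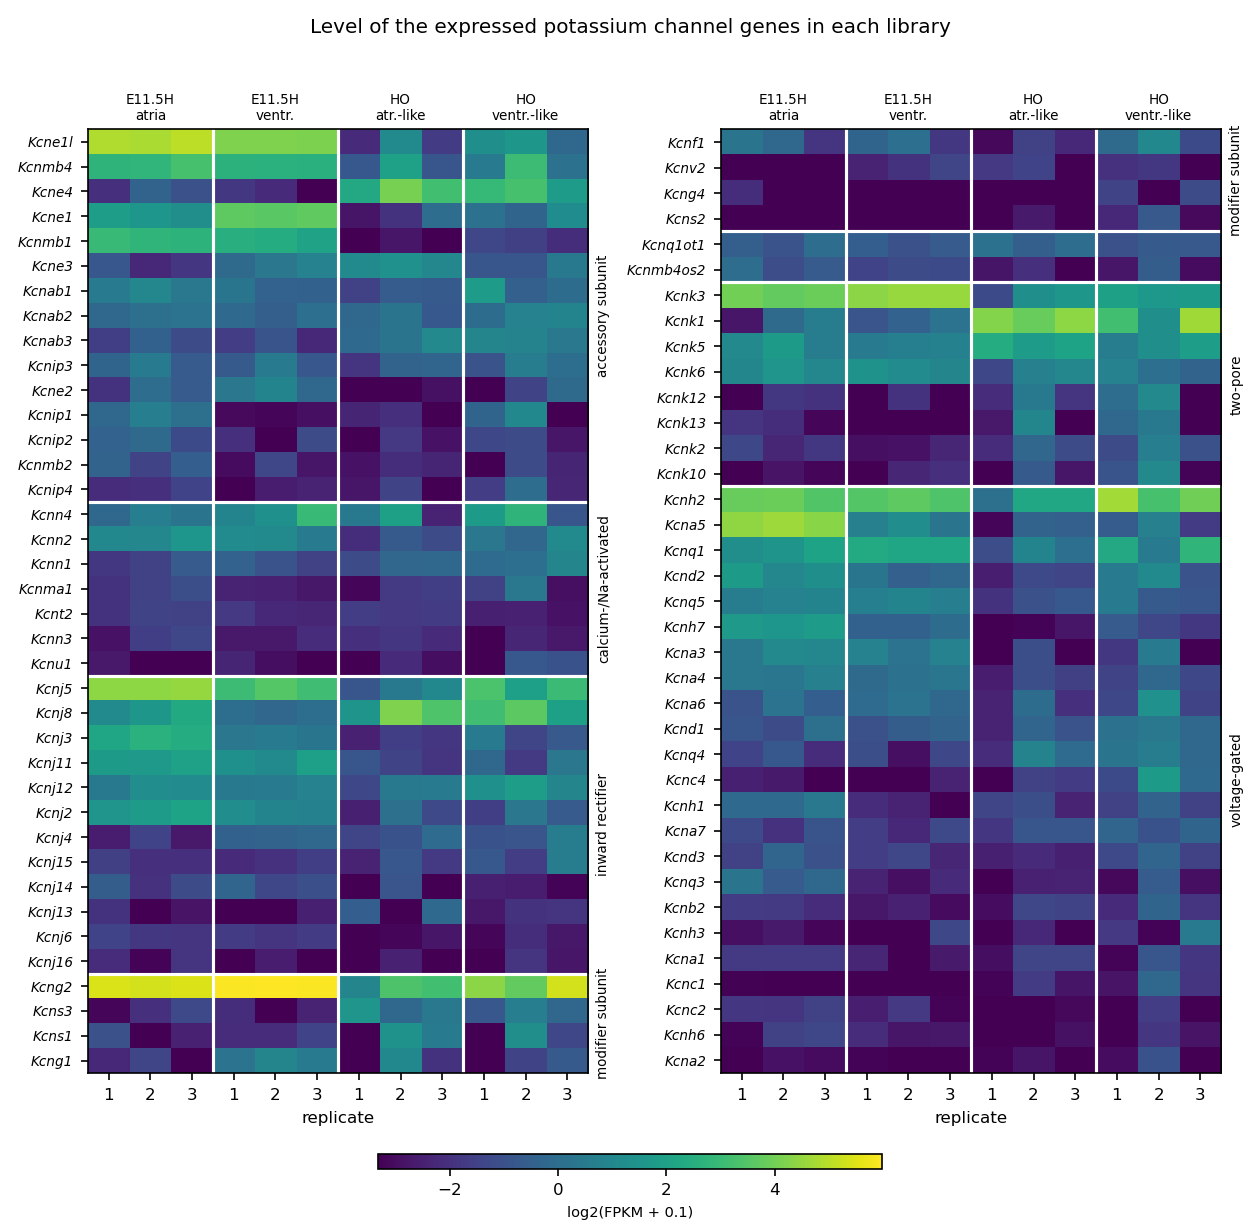
Level of 75 of the 78 expressed potassium channel genes, as log2(FPKM + 0.1), in each of the 12 libraries. Rows are genes, ordered by role and then by mean FPKM, and white lines part the roles and the 4 groups of 3 replicates. Kcng2 is the brightest row in E11.5H, the Kcnk1 row brightens in HOs, and several rows, such as those of Kcnc4 and Kcnk10, brighten in ventricle-like replicate 2.

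Which potassium channel genes differ between the chambers of the embryonic heart was asked with edgeR's quasi-likelihood test, fitted over all genes that passed its filter for low counts. A gene is said to be called at a Benjamini-Hochberg adjusted p under 0.05 with an absolute log2 fold change over 1. Of the 98 members, 65 were tested and 13 were called, 9 higher in atria and 4 higher in ventricles. Among all 14538 genes tested, 4.89% were called, 2.92% higher in atria and 1.97% higher in ventricles, against 20% of the tested members. The median log2 fold change of atria against ventricles was 0.34 over the tested members and 0.01 over all genes. When libraries were scaled to the cardiomyocyte genes the median of all genes moved to 0.29, and 18 members were called, 13 of them higher in atria. These are 27.7% and 20% of the tested members, against 6.86% and 5.36% of all genes under that scaling. All 13 genes called kept their call under that scaling. With the 12 libraries in 1 fit, which uses the wide spread of the HOs for the hearts, no member and 0.378% of all genes were called.

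Among inward rectifiers, Kcnj3 (GIRK1) and Kcnj5 (GIRK4), which together form the acetylcholine-activated channel, were higher in atria. Kcnj3 (chromosome 2 from 55435970 to 55598145 in mm10, as in the deposited table) was at 4.46, 6.08 and 5.33 FPKM in atria and 1.19, 1.28 and 1.14 FPKM in ventricles. Each atrial library thus stood above each ventricular one, with a log2 fold change of 2.06 (SE 0.15, adjusted p = 1.96e-05 by edgeR); SE is the standard error of a log2 fold change. Kcnj5 (chromosome 9 from 32314707 to 32344344) was at 21.0, 20.8 and 22.9 FPKM in atria and 8.11, 11.3 and 8.70 FPKM in ventricles. The groups again did not overlap, and the log2 fold change was 1.13 (SE 0.12, adjusted p = 1.95e-04 by edgeR). Per transcript length, Kcnj5 exceeded Kcnj3 in all 6 heart libraries. Kcnj8 (Kir6.1), a pore of ATP-sensitive channels common in vessel walls, was at 2.04, 2.96 and 4.91 FPKM in atria and 0.918, 0.742 and 0.917 FPKM in ventricles. It was called with a log2 fold change of 1.87 (SE 0.35, adjusted p = 0.00558 by edgeR), although the atrial libraries spread over a wide range. Kcnj2 (Kir2.1), the main pore of the resting current, was at 2.78, 3.44 and 4.09 FPKM in atria and 2.24, 1.73 and 1.61 FPKM in ventricles. The chambers did not overlap and the adjusted p of 0.0160 (edgeR) passed, but the log2 fold change of 0.82 (SE 0.19) was under the limit of 1, so Kcnj2 was not called. With scaling to the cardiomyocyte genes it was called.

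The other inward rectifiers did not pass between the chambers. Kcnj4 (Kir2.3) was at 0.0656, 0.262 and 0.0573 FPKM in atria and 0.638, 0.677 and 0.755 FPKM in ventricles, without overlap, at an edgeR adjusted p of 0.0557. Kcnj12 (Kir2.2) lay at 1.24 to 2.28 FPKM in both chambers, and Kcnj11 (Kir6.2), the other pore of ATP-sensitive channels, at 2.03 to 3.92 FPKM, with overlapping groups.

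Voltage-gated pores gave the largest atrial excess in FPKM. Kcna5 (Kv1.5), which carries the ultrarapid current of atrial muscle (chromosome 6 from 126532551 to 126535555), was at 21.3, 24.7 and 20.04 FPKM in atria and 1.57, 2.24 and 1.08 FPKM in ventricles. The lowest atrial value was several times the highest ventricular one, and the log2 fold change was 3.69 (SE 0.21, adjusted p = 3.15e-06 by edgeR). Kcnh7 (ERG3), a relative of the Kcnh2 channel, was at 3.07, 2.84 and 3.44 FPKM in atria and 0.640, 0.644 and 0.882 FPKM in ventricles, with a log2 fold change of 2.04 (SE 0.24, adjusted p = 3.62e-04 by edgeR). Kcnd2 (Kv4.2), a pore of the transient outward current, was at 3.24, 1.85 and 2.40 FPKM in atria and 1.13, 0.619 and 0.765 FPKM in ventricles. None of the atrial values fell within the ventricular range, and the log2 fold change was 1.51 (SE 0.29, adjusted p = 0.00623 by edgeR). Kcnq3, a pore of the neuronal M current, was lower in level, at 1.10, 0.537 and 0.753 FPKM in atria and 0.0897, 0.0288 and 0.117 FPKM in ventricles, with a log2 fold change of 3.27 (SE 0.49, adjusted p = 0.00159 by edgeR). Kcnh1 (EAG1) was at 0.800, 0.816 and 1.23 FPKM in atria and 0.125, 0.0856 and 0 FPKM in ventricles. Its log2 fold change of 3.68 (SE 0.75, adjusted p = 0.00953 by edgeR) did not pass without atria replicate 3. Kcnh2 (ERG1) and Kcnq1, the pores of the rapid and slow delayed rectifier currents, were not called. Kcnh2 was at 13.9, 14.7 and 10.9 FPKM in atria and 11.2, 12.5 and 10.6 FPKM in ventricles, and its ranges overlapped. Kcnq1 was at 2.29, 2.68 and 4.07 FPKM in atria and 5.04, 4.35 and 4.36 FPKM in ventricles, without overlap but with an edgeR adjusted p of 0.0739. Kcnq1 shares its locus with the antisense RNA Kcnq1ot1, and the use of strand in counting is not given in the sources used here, so its level is uncertain.

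Of the 4 genes higher in ventricles, 3 were accessory or modifier subunits. Kcne1 (minK), which turns Kcnq1 into the slow delayed rectifier (chromosome 16 from 92346001 to 92359468), was at 3.58, 2.84 and 2.33 FPKM in atria and 12.5, 11.9 and 13.1 FPKM in ventricles. Every ventricular library stood above every atrial one, with a log2 fold change of -2.17 (SE 0.17, adjusted p = 2.33e-05 by edgeR). Kcng1, a silent modifier subunit, was at 0.110, 0.282 and 0 FPKM in atria and 1.05, 1.77 and 1.32 FPKM in ventricles, with a log2 fold change of -3.46 (SE 0.89, adjusted p = 0.0291 by edgeR). That call was lost without atria replicate 1 and without each of the 3 ventricle libraries. Kcnv2, another silent subunit, had no count in any atrial library and was at 0.0921, 0.159 and 0.280 FPKM in ventricles, at least 9.92-fold higher against a floor of 3 counts per atrial library (edgeR adjusted p = 0.00790). Kcnn4, the intermediate-conductance calcium-activated channel known from red cells and other non-muscle cells, was at 0.777, 1.47 and 1.09 FPKM in atria and 1.73, 2.46 and 7.79 FPKM in ventricles. Its log2 fold change of -1.94 (SE 0.54, adjusted p = 0.0407 by edgeR) rested on ventricle replicate 3, the library richest in erythroid genes. Without that library it was -0.97 and not called, and the call was also lost without each of the 3 atria libraries. The part of red cells in the Kcnn4 value was not tested. Kcne3 stood just outside the threshold, at 0.477, 0.104 and 0.179 FPKM in atria and 0.835, 1.19 and 1.66 FPKM in ventricles (log2 fold change -2.33, SE 0.69, adjusted p = 0.0503 by edgeR).

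Among accessory subunits, Kcnip1 (KChIP1), a calcium sensor that binds Kv4 pores, was higher in atria, at 0.784, 1.46 and 0.978 FPKM against 0.0192, 0.00955 and 0.0313 FPKM in ventricles. The 3 atrial libraries held 352 fragments and the ventricular ones 6, a ratio of 55.3 after scaling for library size (exact 95% counting interval 25.1 to 152, edgeR adjusted p = 3.40e-04). Kcnmb1, the beta subunit of the large calcium-activated channel of smooth muscle, lies inside Kcnip1 on the opposite strand. It was at 7.85, 6.62 and 6.37 FPKM in atria and 5.71, 5.24 and 3.98 FPKM in ventricles, not called, and the division of fragments between both genes is uncertain. Kcnip2 (KChIP2), the partner of the adult ventricular transient outward current, was under 1 FPKM in every library, at 0.658, 0.834 and 0.322 in atria and 0.138, 0 and 0.340 in ventricles, and was not called. Kcne1l was at 28.9, 28.0 and 33.0 FPKM in atria and 17.8, 17.8 and 17.6 FPKM in ventricles. The chambers did not overlap and the adjusted p was 0.00194 (edgeR), but the log2 fold change of 0.69 was under 1. Kcng2 and Kcnk3 also passed on p alone, with log2 fold changes of -0.57 and -0.68 (edgeR adjusted p = 6.61e-04 and 0.00155), both higher in ventricles. Of the 6 two-pore channels tested none was called by edgeR, with 1 at an unadjusted p under 0.05 (26.9% of all genes tested). Over all roles, 21 tested members lay wholly higher in atria and 9 wholly lower in FPKM (46.2% together), against 21.3% and 11.8% of all genes tested (33.1% together).

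**Figure D2:**
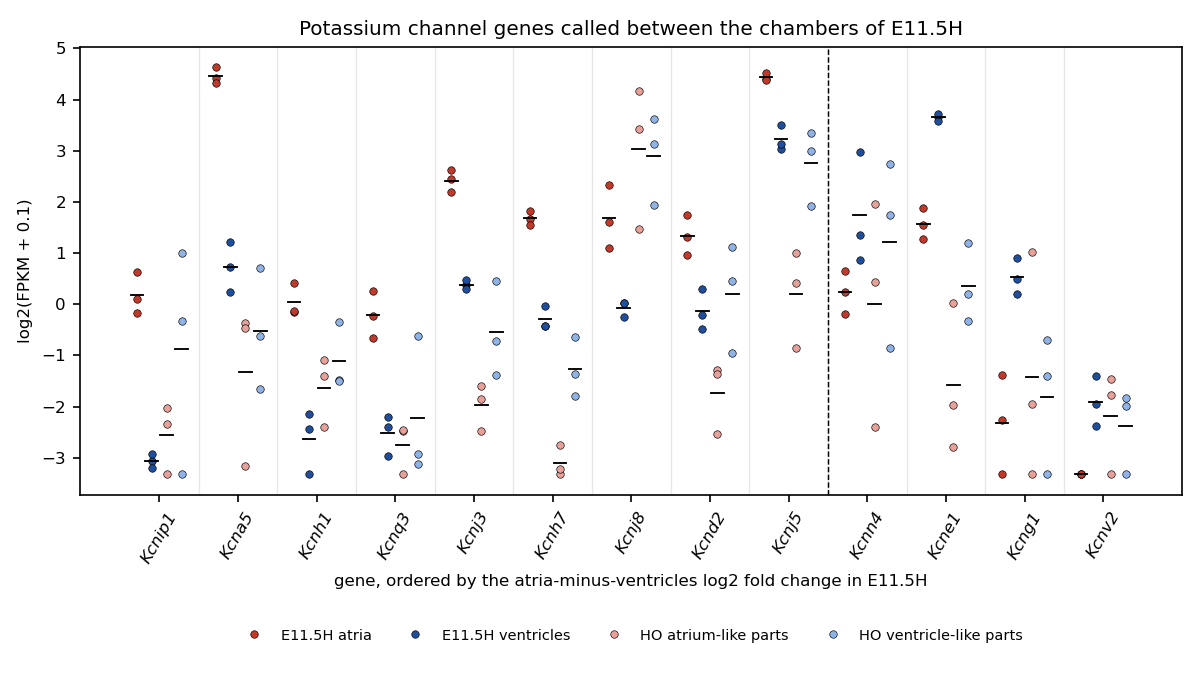
The 13 potassium channel genes called between the chambers of E11.5H, as log2(FPKM + 0.1) on the vertical axis, with 1 point per library and a bar at the mean of each group of 3. Genes left of the dashed line were called higher in atria and those right of it higher in ventricles. Kcna5, Kcnj3, Kcnh7 and Kcnj5 sit high in atria and low in atrium-like parts, and Kcnj8 sits as high in HOs as in atria or higher.

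Genes that act on the GIRK channel were examined beside Kcnj3 and Kcnj5. Of 10 receptor and G protein genes listed, all were tested and 3 were called, all higher in atria. Among all genes tested, 4.89% were called between the chambers, 2.92% higher in atria. Adora1, the adenosine receptor that opens GIRK channels, was at 5.69, 5.64 and 5.65 FPKM in atria and 1.29, 2.08 and 1.34 FPKM in ventricles, with a log2 fold change of 1.78 (SE 0.18, adjusted p = 1.49e-04 by edgeR). Rgs6, which shortens the GIRK response by speeding G protein turnover, was at 3.76, 3.84 and 3.79 FPKM in atria and 0.849, 1.15 and 0.988 FPKM in ventricles (log2 fold change 1.86, SE 0.16, adjusted p = 5.69e-05 by edgeR). Both genes were separated without overlap. Gnao1, an inhibitory G protein alpha subunit, was at 5.53, 5.21 and 4.65 FPKM in atria and 1.36, 1.36 and 1.73 FPKM in ventricles (log2 fold change 1.71, SE 0.15, adjusted p = 5.71e-05 by edgeR). Chrm2, the muscarinic receptor of the vagal response, was not called and had its higher values in ventricles, at 2.60, 1.37 and 2.15 FPKM in atria against 2.98, 2.80 and 4.12 FPKM in ventricles (edgeR adjusted p = 0.146). Among the other 13 partner genes listed, 10 were tested and 2 were called, both higher in atria. Abcc8 (SUR1), a regulatory subunit of ATP-sensitive channels, was at 2.93, 2.40 and 3.42 FPKM in atria and 0.523, 0.744 and 1.07 FPKM in ventricles (log2 fold change 1.83, SE 0.29, adjusted p = 0.00209 by edgeR). Lrrc38, a partner of large calcium-activated channels, had no fragment in ventricles and 0.146 to 0.291 FPKM in atria (edgeR adjusted p = 0.0189), and its call was lost in each of the 6 fits without a library.

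When the atrium-like parts of HOs were set against the ventricle-like ones, no member was called by edgeR among 69 tested, and none of all 15704 genes was (0%). The lowest adjusted p of a member was 0.750. An unadjusted p under 0.05 was reached by 13 of the 69 members (18.8%) and by 5.67% of all genes. DESeq2 called 1 member, Kcnj5 (1.47% of those tested, against 0.361% of all genes), and limma called none, nor any of all genes. The fitted difference was lower in atrium-like parts for 54 of the 69, with a median of -1.004 against -0.03 over all genes. Without ventricle-like replicate 2 it was lower for 44 of 71 members, with a median of -0.28, and without atrium-like replicate 2 the median was -1.51. With scaling to the cardiomyocyte genes the difference was higher for 35 of 69 while the median of all genes moved to 1.49. In FPKM, 16 members lay wholly lower and 4 wholly higher in atrium-like parts (29.0% together), against 9.25% and 4% of all genes (13.3% together). Summed cardiomyocyte genes were also wholly lower in atrium-like parts (338 to 1279 against 1903 to 4607 FPKM), as was the sum of the 6 atrial marker genes (131 to 431 against 504 to 1642 FPKM). Within the atrial list Myl7, which made up most of the sum, Nppa and Tbx5 were wholly lower, while Sln, Nr2f1 and Nr2f2 overlapped between the parts. The part of these marker genes in the values of the channel genes was not tested.

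Several genes with an atrial excess in E11.5H stood the other way round in HOs. Of 78 tested members, 7 (8.97%) had both E11.5H chambers and both HO parts without overlap in FPKM and in opposite directions, as did 2.39% of all genes. Kcnj5 was at 0.456, 1.24 and 1.91 FPKM in atrium-like and 10.1, 3.67 and 7.93 FPKM in ventricle-like parts. The parts did not overlap, and the log2 fold change was -2.46 (SE 0.61, adjusted p = 0.750 by edgeR). Kcnj3 was at 0.0804, 0.232 and 0.177 FPKM in atrium-like and 1.28, 0.282 and 0.509 FPKM in ventricle-like parts, again without overlap, with a log2 fold change of -1.97 (SE 0.80, adjusted p = 0.750 by edgeR) that shrank to -1.15 without ventricle-like replicate 1. Kcnh7 was at 0, 0.00777 and 0.0485 FPKM in atrium-like and 0.539, 0.290 and 0.187 FPKM in ventricle-like parts, with 7 fragments over the atrium-like libraries. Kcnd2 was at 0.0724, 0.311 and 0.289 FPKM in atrium-like and 1.27, 2.08 and 0.418 FPKM in ventricle-like parts. Both were separated with the lower values in atrium-like parts, at log2 fold changes of -3.95 (SE 1.36) and -2.36 (SE 0.82), edgeR adjusted p 0.750 for both. Kcnab1, a beta subunit of Kv1 channels, was at 0.261, 0.554 and 0.518 FPKM in atrium-like and 3.33, 0.619 and 0.884 FPKM in ventricle-like parts, and its log2 fold change of -1.73 (SE 0.79) shrank to -0.62 without ventricle-like replicate 1. Kcnmb1 was at 0, 0.0493 and 0 FPKM in atrium-like and 0.292, 0.241 and 0.133 FPKM in ventricle-like parts (log2 fold change -3.63, SE 1.55), with its 7 atrium-like fragments all in replicate 2. Kcne3 was the reverse case, at 2.07, 2.47 and 1.90 FPKM in atrium-like and 0.462, 0.463 and 1.24 FPKM in ventricle-like parts against the ventricular excess of E11.5H (HO log2 fold change 1.75, SE 0.63, adjusted p = 0.750 by edgeR).

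Whether the chamber difference itself differed between HOs and E11.5H was tested as an interaction term, chamber by tissue, fitted to the 12 libraries together. No member was called among 78 tested, against 0.152% of all 16496 genes, while 18 members (23.1%) and 11.7% of all genes had an unadjusted p under 0.05. DESeq2 called 10 members (12.8%) against 2.71% of all genes. With limma 5 members (6.41%) were called on log2(FPKM + 1) and 2 (2.56%) on log2(FPKM + 0.1), against 0.54% and 0.273% of all genes. The lowest adjusted p belonged to Kcnj5, for which the HO difference minus the E11.5H difference was -3.59 (SE 0.65, adjusted p = 0.0880 by edgeR) on the log2 scale. Kcnj3 followed with -4.01 (SE 0.73, adjusted p = 0.0911 by edgeR) and Kcnh7 with -5.96 (SE 1.15, adjusted p = 0.113 by edgeR). Calls appeared when single HO libraries were left out. Without atrium-like replicate 2 the interaction was called for Kcnj3, Kcnmb1 and Kcne1l, without atrium-like replicate 3 for Kcnh7, and without ventricle-like replicate 2 for Kcnj3 and Kcnj5. Those 3 fits called 1.31%, 0.0767% and 0.249% of all genes. Chosen after seeing the data, a fit without the 3 libraries richest in endoderm genes called 6 members (Kcnh7, Kcnd2, Kcna5, Kcnj5, Kcnip1 and Kcnmb1), or 6.9% of those tested against 1.27% of all genes. A fit without the HO libraries holding Myod1 and Myog called 5 (Kcnj3, Kcnh7, Kcnj5, Kcnmb1 and Kcne1l), or 6.49% against 1.66% of all genes. In both fits the HO difference was the lower one for every gene called.

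**Figure D3:**
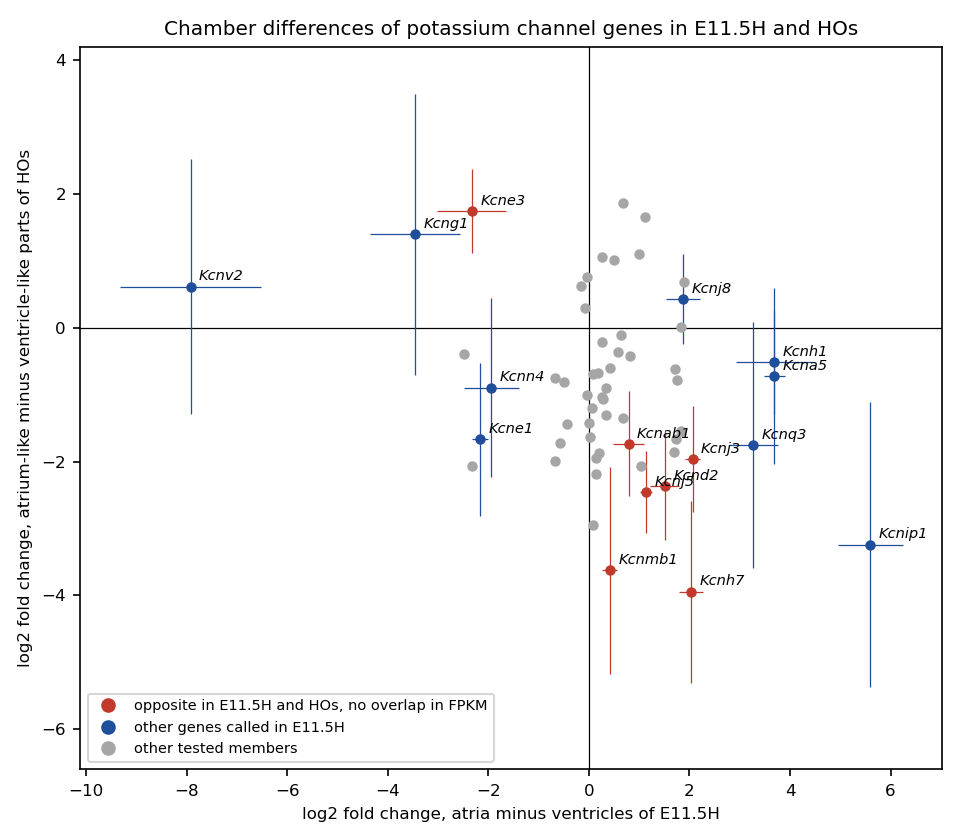
Log2 fold change of atria minus ventricles of E11.5H (horizontal) against that of atrium-like minus ventricle-like parts of HOs (vertical) for the 59 potassium channel genes tested in both. Bars are standard errors, drawn for named genes. Of the 42 genes above 0 on the horizontal axis, 34 lie below 0 on the vertical one, as do 11 of the 17 genes below 0 on the horizontal axis. Of all members tested between HO parts, 54 of 69 were below 0, and 44 of 71 without ventricle-like replicate 2. The matching shares of all genes are not given here.

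The other genes with the lowest unadjusted p between the HO parts were Kcnh2 and Kcnd3, lower in atrium-like parts, and Kcnq1ot1 and Kcnt2, higher there. Kcnh2 was at 0.977, 4.71 and 4.58 FPKM in atrium-like and 25.4, 9.44 and 15.3 FPKM in ventricle-like parts, with a log2 fold change of -2.19 (SE 0.63, adjusted p = 0.750 by edgeR). Kcnd3 (Kv4.3), a further pore of the transient outward current, was at 0.0775, 0.119 and 0.0761 FPKM in atrium-like and 0.315, 0.715 and 0.257 FPKM in ventricle-like parts (log2 fold change -2.07, SE 0.66, adjusted p = 0.750 by edgeR). Neither gene overlapped between the parts. Kcnq1ot1 was at 0.996, 0.606 and 0.910 FPKM in atrium-like and 0.394, 0.514 and 0.502 FPKM in ventricle-like parts. Kcnt2, a sodium-activated channel, was at 0.219, 0.192 and 0.215 FPKM in atrium-like and 0.0775, 0.0813 and 0.0372 FPKM in ventricle-like parts. Both stood wholly higher in atrium-like parts, with log2 fold changes of 1.05 (SE 0.31) and 1.86 (SE 0.66) and an edgeR adjusted p of 0.750 each. Kcnj2 showed no clear difference, at 0.0770, 0.986 and 0.316 FPKM in atrium-like and 0.230, 1.17 and 0.532 FPKM in ventricle-like parts. Its log2 fold change of -0.42 (SE 0.99, adjusted p = 0.915 by edgeR) was lowest without replicate 2 of the atrium-like parts (-1.48) and turned positive without replicate 2 of the ventricle-like parts (0.31).

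Atrium-like parts were then set against atria of E11.5H, which shows how far each channel gene stood from its embryonic counterpart. Of 67 members tested, 22 were called, 18 lower and 4 higher in atrium-like parts. Among all 15420 genes, 24.8% were called, with 8.83% lower and 16% higher, while 26.9% of the tested members were lower and 5.97% higher. The median log2 fold change was -0.84 over the tested members and 0.06 over all genes. The members' median was -0.42 without atrium-like replicate 1, -1.83 without replicate 2 and -0.29 without the 2 atrium-like libraries richest in endoderm genes. The cardiomyocyte list fell with them, with 15 of its 16 genes called lower, and its part in the fall of the channel genes was not tested. Scaled to the cardiomyocyte genes, which moved the median of all genes from 0.06 to 4.1, 40 members were called higher and 3 lower (Kcnh7, Kcna5 and Kcnmb1). These are 59.7% and 4.48% of the tested members, against 92.4% and 0.551% of all genes under the same scaling. Of the 22 calls, 8 held in each of the 6 fits that left out a library, namely Kcnj3, Kcnj5, Kcnj11, Kcna5, Kcnh7, Kcnd2, Kcnmb1 and Kcne4. The count was 10, 10 and 9 without atria replicates 1, 2 and 3, and 32 without atrium-like replicate 2. These counts range from 12.7% to 45.7% of the tested members. The share of all genes called moved with them, at 10.3%, 10.5%, 10.7% and 34.7% in the same order.

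The GIRK genes were lower, from 4.46 to 6.08 FPKM of Kcnj3 in atria to 0.0804, 0.232 and 0.177 FPKM, and from 20.8 to 22.9 FPKM of Kcnj5 to 0.456, 1.24 and 1.91 FPKM in atrium-like parts. Their log2 fold changes were -4.87 (SE 0.40, adjusted p = 0.00153 by edgeR) and -4.02 (SE 0.48, adjusted p = 0.00371 by edgeR). Kcna5 stood at 0.0116, 0.677 and 0.624 FPKM in atrium-like parts, with a log2 fold change against atria of -5.53 (SE 0.98, adjusted p = 0.0101 by edgeR). Kcnh7 had a log2 fold change of -7.12 (SE 1.001, adjusted p = 0.00542 by edgeR), Kcnd2 of -3.35 (SE 0.58, adjusted p = 0.00964 by edgeR) and Kcnj11 of -3.32 (SE 0.54, adjusted p = 0.00801 by edgeR). Kcnj11 was at 0.462, 0.272 and 0.161 FPKM in atrium-like parts. Kcnmb1 showed the deepest fall, with 0 in atrium-like replicates 1 and 3 and 0.0493 FPKM, or 7 fragments, in replicate 2 (log2 fold change -8.47, SE 1.02, adjusted p = 0.00369 by edgeR). Kcne1l was at 0.121, 2.02 and 0.212 FPKM (log2 fold change -5.18, SE 1.003, adjusted p = 0.0130 by edgeR), and its call was lost without atria replicate 1 or 3. Kcnc2, a pore of fast-spiking cells, was low already in atria, at 0.177, 0.162 and 0.247 FPKM, and held 3 fragments over the atrium-like libraries against 123 over atria, a ratio of 37.6 for atria over atrium-like parts (exact 95% counting interval 12.6 to 185), called with an adjusted p of 0.0308 (edgeR) that was lost without each atria library and without atrium-like replicate 1.

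The other falls called were those of Kcnj2, Kcnh2, Kcnd3, Kcna4, Kcnq5, Kcnab1, Kcnk3, Kcng2 and Kcnn2, each lost without every single atria library. Without atrium-like replicate 3 those of Kcnj2, Kcnh2, Kcnd3, Kcna4 and Kcnab1 were lost too, and without replicate 1 those of Kcnd3 and Kcnab1. All 9 log2 fold changes, and those of Kcnd2 and Kcnj11, were positive when the libraries were scaled to the cardiomyocyte genes. Kcnj2 had a log2 fold change of -2.82 (SE 0.78, adjusted p = 0.0370 by edgeR), at 0.0770 to 0.986 FPKM in atrium-like parts against 2.78 to 4.09 FPKM in atria. Kcnk3 was at 0.321, 2.35 and 2.89 FPKM and Kcng2 at 1.80, 10.3 and 8.81 FPKM in atrium-like parts, with log2 fold changes of -2.85 (SE 0.69) and -2.51 (SE 0.55). The falls of the other 6 genes ran from -2.60 for Kcnn2, a small-conductance calcium-activated channel, to -1.57 for Kcnab1. Atrium-like replicate 1, which was lowest in cardiomyocyte genes, was also the lowest of the 3 for Kcnj2, Kcnj3, Kcnj5, Kcna5, Kcnh2, Kcnk3 and Kcng2. Kcnj11 went the other way, with 43 fragments in atrium-like replicate 1 against 30 and 17 in replicates 2 and 3. In FPKM, Kcnd3 was lowest in replicate 3, close to replicate 1.

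Members higher in atrium-like parts than in atria included Kcne4, Kcnk1 and Kcne3. Kcne4, a subunit that damps Kv1 channels, was at 0.146, 0.675 and 0.393 FPKM in atria and 4.74, 16.6 and 8.86 FPKM in atrium-like parts, with a log2 fold change of 4.76 (SE 0.69, adjusted p = 0.00581 by edgeR). Kcnk1 (TWIK-1), a weak two-pore channel known from kidney and other epithelia (chromosome 8 from 125995102 to 126030688), was at 0.0490, 0.824 and 1.39 FPKM in atria and 19.0, 14.1 and 21.0 FPKM in atrium-like parts. All atrium-like values lay above all atrial values (log2 fold change 4.78, SE 1.01, adjusted p = 0.0165 by edgeR), and the call was lost without atria replicate 2. Kcne3, an intestinal and tracheal partner of Kcnq1, had a log2 fold change of 3.23 (SE 0.73, adjusted p = 0.0197 by edgeR), lost without atria replicate 2 or 3.

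Ventricle-like parts were set against ventricles in the same way. Of 66 members tested, 13 were called, 6 lower and 7 higher, against 7.37% lower and 11.6% higher of all 15094 genes (19% together, 19.7% of the tested members). The median log2 fold change was 0.28 over the tested members and 0.09 over all genes, but the sign of the members' median rested on single libraries. It was -0.12 without ventricle-like replicate 2 and 0.51 without replicate 3, and 0.60, 0.73 and 0.62 without ventricles replicates 1, 2 and 3. With scaling to the cardiomyocyte genes, of which 12 of 16 were called lower, the median of all genes moved to 2.91 and 44 members were called higher and 1, Kcnmb1, lower. These are 66.7% and 1.52% of the tested members, against 89.9% and 0.537% of all genes under that scaling. Kcnk3, Kcnj8, Kcnmb1, Kcne1 and Kcne1l were called in each of the 6 fits without a library. The count fell to 5, 5 and 6 without ventricles replicates 1, 2 and 3, and rose to 20 without ventricle-like replicate 3. In order, these are 6.58%, 6.58%, 7.79% and 26.7% of the tested members. The shares of all genes were close, at 7.56%, 7.01%, 7.58% and 23.9%. Whether the falls in the atrium-like and ventricle-like parts differ was covered by the interaction test above.

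Kcnk3 was at 3.81, 3.003 and 3.28 FPKM in ventricle-like parts against 20.5, 23.2 and 23.0 FPKM in ventricles, a narrow spread on both sides (log2 fold change -2.82, SE 0.16, adjusted p = 0.00109 by edgeR). Kcne1 was at 1.05, 0.699 and 2.20 FPKM against 11.9 to 13.1 FPKM in ventricles (log2 fold change -3.34, SE 0.45, adjusted p = 0.00516 by edgeR). Its pore Kcnq1 was not called there, at 4.77, 1.36 and 6.71 FPKM against 4.35 to 5.04 FPKM. Kcne1l had a log2 fold change of -3.22 (SE 0.50, adjusted p = 0.00765 by edgeR) and Kcnmb1 of -4.57 (SE 0.39, adjusted p = 0.00168 by edgeR). Kcnj14 (Kir2.4), at 0.0752, 0.0696 and 0.00584 FPKM, and Kcng2, at 20.3, 13.3 and 40.3 FPKM, were called lower with log2 fold changes of -3.16 (SE 0.86, adjusted p = 0.0383 by edgeR) and -1.39 (SE 0.40, adjusted p = 0.0427 by edgeR). Both calls were lost without each ventricle library, that of Kcnj14 also without ventricle-like replicate 1 or 2 and that of Kcng2 without ventricle-like replicate 1. Kcng2 reached 40.3 FPKM in ventricle-like replicate 3, the library highest in cardiomyocyte genes among the HOs.

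Kcnh2 and Kcnj5 were not called between ventricle-like parts and ventricles. Kcnh2 was at 25.4, 9.44 and 15.3 FPKM against 10.6 to 12.5 FPKM in ventricles (log2 fold change 0.46, SE 0.36, adjusted p = 0.359 by edgeR), and Kcnj5 at 10.1, 3.67 and 7.93 FPKM against 8.11 to 11.3 FPKM (log2 fold change -0.46, SE 0.38, adjusted p = 0.400 by edgeR). The ranges of both genes overlapped those of ventricles. Kcnj12 (Kir2.2) was at 2.46, 3.50 and 1.79 FPKM against 1.24 to 1.62 FPKM, wholly higher without a call (edgeR adjusted p = 0.120), while Kcnj2 was at 0.230, 1.17 and 0.532 FPKM against 1.61 to 2.24 FPKM, wholly lower without a call (edgeR adjusted p = 0.0843). The level of Kcnj12 thus exceeded that of Kcnj2 per transcript length in all 6 HO libraries, whereas Kcnj2 was the higher in 5 of the 6 libraries of E11.5H, all but ventricle replicate 3.

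Members higher in ventricle-like parts than in ventricles included Kcnj8, Kcne4, Kcnk1, Kcnk2, Kcnab3 and Kcnc1. Kcnj8 was at 8.63, 12.3 and 3.76 FPKM against 0.742 to 0.918 FPKM (log2 fold change 3.16, SE 0.47, adjusted p = 0.00693 by edgeR). In atrium-like parts it was at 2.69, 18.0 and 10.7 FPKM and not called against atria (edgeR adjusted p = 0.0806). Kcne4 was at 7.33, 9.46 and 3.46 FPKM (log2 fold change 5.92, SE 1.10, adjusted p = 0.0130 by edgeR), a call lost without ventricles replicate 1 or 2. Kcnk1 was at 8.91, 2.40 and 25.3 FPKM against 0.446, 0.658 and 1.07 FPKM (log2 fold change 3.97, SE 0.93, adjusted p = 0.0244 by edgeR), and Kcnk2 (TREK-1), a stretch-sensitive channel, at 0.337, 1.48 and 0.396 FPKM against 0.0303, 0.0376 and 0.0985 FPKM (log2 fold change 3.59, SE 0.91, adjusted p = 0.0308 by edgeR). Both calls were lost without each ventricle library, and without ventricle-like replicate 1 for Kcnk1 or replicate 2 for Kcnk2. Kcnab3, an accessory subunit of Kv1 channels, was at 1.78, 1.69 and 1.23 FPKM, with a log2 fold change of 2.54 (SE 0.63), lost without each of the ventricle libraries and without ventricle-like replicate 1. Kcnc1 (Kv3.1), a pore of fast-spiking neurons, had no fragment in ventricles and was at 0.0390, 0.771 and 0.161 FPKM, at least 32.6-fold higher against a floor of 3 counts per ventricle library (edgeR adjusted p = 0.0361). Most of this came from ventricle-like replicate 2, and the call was lost without each ventricle library.

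**Figure D4:**
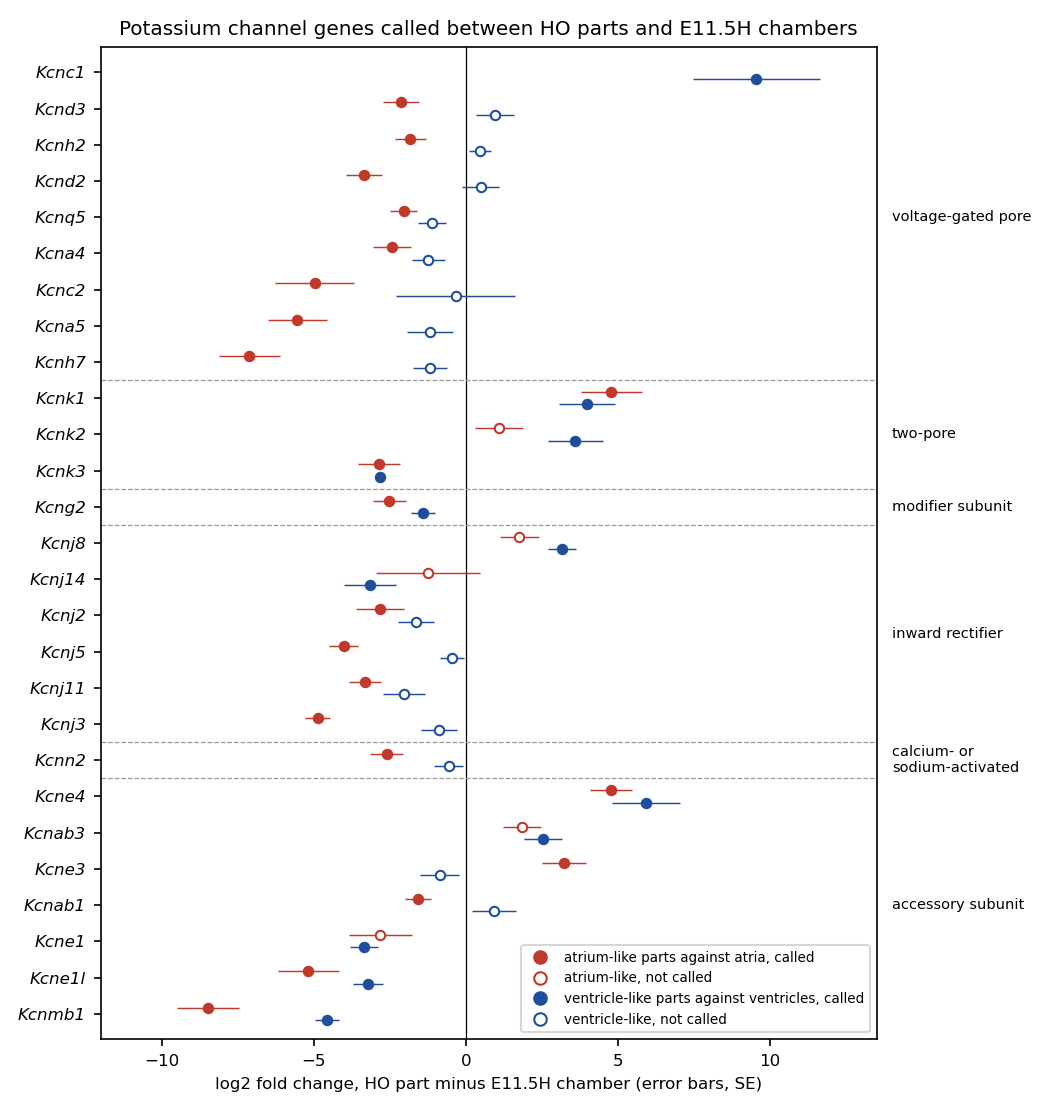
Log2 fold change with its standard error of each HO part against the matching chamber of E11.5H, for the potassium channel genes reported here that were called in at least 1 of the 2 comparisons. Filled points were called and open points were not. Kcnk3, Kcng2, Kcne1l and Kcnmb1 were called lower in both parts and Kcne4 and Kcnk1 higher in both, and no gene was called in opposite directions. With scaling to the cardiomyocyte genes instead, only Kcnh7, Kcna5 and Kcnmb1 were called lower in atrium-like parts and only Kcnmb1 in ventricle-like parts.

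Of the 10 genes acting on the GIRK channel, 2 were called in each HO part against its chamber. Among all genes tested, 24.8% were called for atrium-like parts and 19% for ventricle-like parts. Against atria, atrium-like parts were lower in Gnao1, at 0.249, 0.929 and 0.467 FPKM (log2 fold change -3.11, SE 0.43, adjusted p = 0.00520 by edgeR), and in Rgs6, at 0.355, 1.61 and 1.14 FPKM (log2 fold change -1.76, SE 0.47, adjusted p = 0.0325 by edgeR). Against ventricles, ventricle-like parts were higher in Rgs6, at 2.87, 2.41 and 4.12 FPKM (log2 fold change 1.56, SE 0.29, adjusted p = 0.0129 by edgeR), and in Adora1, at 2.51, 6.01 and 5.69 FPKM (log2 fold change 1.49, SE 0.38, adjusted p = 0.0324 by edgeR). The Gnao1 call held in all 6 fits without a library, and the other 3 were lost in 3 to 5 of them. Among all genes, 8.83% were called lower and 16% higher in atrium-like parts, and 7.37% lower and 11.6% higher in ventricle-like parts. Of all 23 partner genes listed, 20 were tested in each of these comparisons. In atrium-like parts 4 of them were called lower and none higher, and in ventricle-like parts 2 lower and 4 higher. Those lower also included Abcc8 and Cav3 against atria and Abcc9 and Cav3 against ventricles, and those higher also Lrrc38 and Lrrc55. Abcc9 (SUR2), the sulfonylurea receptor of heart and vessel, was at 1.12, 3.73 and 0.540 FPKM in ventricle-like parts against 6.94 to 11.95 FPKM in ventricles (log2 fold change -2.42, SE 0.70, adjusted p = 0.0451 by edgeR, lost in 4 of 6 such fits).

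Some members high in HOs were highest in the same libraries as markers of other tissues. The 6 epithelial genes summed to 3339, 1064 and 3418 FPKM in atrium-like and 937, 628 and 2420 FPKM in ventricle-like parts, against 73.1 to 99.7 FPKM in E11.5H, where Cdh1 was at most 0.0281 FPKM. Kcnk1 was highest in the same 3 HO libraries (19.0, 21.0 and 25.3 FPKM) and lowest in ventricle-like replicate 2 (2.40 FPKM), which was also lowest for the epithelial list. Kcnk5, a two-pore channel of kidney and airway, reached 5.31 FPKM in atrium-like replicate 1 and was not called. The neural list summed to 319 FPKM in ventricle-like replicate 2, to 75.1 and 72.1 FPKM in atrium-like replicate 2 and ventricle-like replicate 1, and to at most 14.3 FPKM in the other 9 libraries. Of the 78 expressed members, 39 had their highest HO value in ventricle-like replicate 2, as did 27.3% of all 16558 expressed genes. Among them were Kcnc4, a pore of fast-firing neurons, at 0.324, 3.22 and 0.808 FPKM, Kcnk10 at 0.429, 1.98 and 0.00753 FPKM and Kcna6 at 0.309, 2.50 and 0.275 FPKM in ventricle-like parts, named here after their values were seen. The value of replicate 2 was the highest for each. Outside it Kcnc4 did not follow the neural list. Ventricle-like replicate 3 had more Kcnc4 than replicate 1 at a lower neural sum, 5.75 against 72.1 FPKM. Macrophage genes summed to 12.3 to 52.9 FPKM in E11.5H and 70.6 to 609 FPKM in HOs, highest in replicate 2 of both parts. Most of the sum there was Lyz2, at 438 of 609 FPKM (atrium-like) and 347 of 497 FPKM (ventricle-like). Csf1r was instead lowest in atrium-like replicate 2, at 13.4 FPKM against 32.1 and 15.6 FPKM in replicates 1 and 3. Cd68 was highest in ventricle-like replicate 1, at 89.7 FPKM against 86.4 FPKM in replicate 2. In the other part Csf1r and Cd68 were highest in replicate 2, and C1qa was so in both parts. Kcnk13, a two-pore channel of microglia and macrophages, was at 0.0561, 1.85 and 0 FPKM in atrium-like and 0.775, 1.24 and 0 FPKM in ventricle-like parts, again highest in replicate 2 of both parts, and so was Kcnn4, at 1.25, 3.81 and 0.0905 FPKM in atrium-like and 3.24, 6.57 and 0.454 FPKM in ventricle-like parts. The part of epithelial, neural and macrophage cells in these values was not tested.

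**Figure D5:**
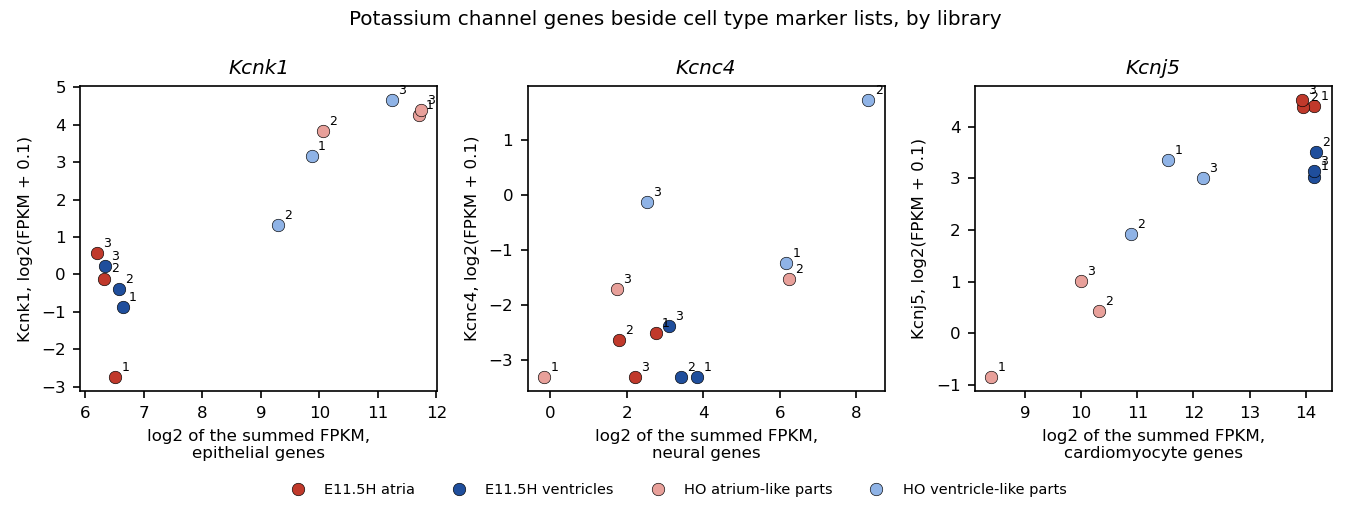
Kcnk1, Kcnc4 and Kcnj5, as log2(FPKM + 0.1), against the log2 of the summed FPKM of the epithelial, neural and cardiomyocyte marker lists, with 1 point per library, coloured by group and numbered by replicate. Kcnk1 is above 2 FPKM only in the HO libraries, which also have the higher epithelial sums, and Kcnc4 stands out in ventricle-like replicate 2 at 3.22 FPKM. For Kcnj5, ventricle-like replicates 1 and 3 reach the range around the ventricles of E11.5H at a lower cardiomyocyte sum.

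Several channel genes lie close to another member in the genome. Kcna5 and Kcna1 lie 100908 bases apart on chromosome 6, with Kcna6 a further 62528 bases away, yet atria had 22.0 ± 2.39 FPKM of Kcna5, 0.197 ± 0.00225 FPKM of Kcna1 and 0.690 ± 0.338 FPKM of Kcna6 (SD, n = 3 each). Kcnj5 and Kcnj1, a kidney channel, lie 28074 bases apart on chromosome 9, and Kcnj1 had no count in E11.5H. Kcnj2 and Kcnj16 lie 38197 bases apart on chromosome 11, with Kcnj16 at no more than 0.167 FPKM in any library. Kcne1 and Kcne2, an accessory subunit of Kcnh2 channels, lie 47868 bases apart on chromosome 16. Kcne2 was at 0.160, 0.888 and 0.539 FPKM in atria and 1.20, 1.71 and 0.765 FPKM in ventricles, with overlapping ranges and an edgeR adjusted p of 0.237.

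The remaining genes of the cardiac current list were low or not called. Kcnma1, the large calcium-activated pore that Kcnmb1 serves, was at 0.0518 to 0.366 FPKM in E11.5H and reached 1.23 FPKM only in ventricle-like replicate 2. Kcnn3 was at most 0.291 FPKM in any library. Kcnn2 was at 1.91, 1.89 and 2.82 FPKM in atria and 2.13, 2.10 and 1.29 FPKM in ventricles, not called between chambers. Kcna4, Kcnd3, Kcnk2 and Kcnc1 were each under 2 FPKM in every E11.5H library and not called or not tested between its chambers. Of the 20 members below the expression limit, 13 had a count of 10 or more in some library and 2, Kcna10 and Kcnmb4os1, had none anywhere. The highest value of 10 of these 20 was in ventricle-like replicate 2, led by Kcnk9, a two-pore channel of the brain, at 1.24 FPKM.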

How the data were processed

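Per the labels and the study's methods, the authors sequenced 12 TruSeq RNA libraries, aligned reads to the mouse genome mm10 with STAR and counted fragments per gene. The table deposited holds expected counts (23.8% of the values are not whole), summing to between 23971258 and 30540993 per library, and FPKM values computed by the authors from counts and transcript length. Strand use in counting, and how reads shared by overlapping genes (Kcnip1 with Kcnmb1, Kcnq1 with Kcnq1ot1) were divided, are not given in the sources used here.

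Counts were rounded to whole numbers and tested with edgeR 4.0.16 (quasi-likelihood, TMM, filterByExpr with a count minimum of 10) in R 4.3.3, fitted over all genes of the groups compared and adjusted by Benjamini-Hochberg over all genes tested. A gene was called where the adjusted p was under 0.05 and its log2 fold change lay beyond 1 in either direction. The edgeR fit was also run on simulated counts, which took their common variation from the fits of these data. A log2 fold change of a gene with no count in a group depends on the prior count, so a bound against 3 counts is given in its place. Counting intervals are exact at 95% and cover counting error only. Each group had 3 samples. The study's methods call the HO parts biological triplicates and do not state this for the dissected atria and ventricles. The p-values weigh a group difference against the spread between the samples of a fit.

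The genes named were a cardiac current list, all members called between the E11.5H chambers, the 5 largest rises and falls called for each HO part, the 3 lowest unadjusted p per direction between HO parts, and any called interaction. Most further members called are named too, and others were chosen after their values were seen. Values of some members are not reported here, though all counts include them. The members, marker lists and partner lists were chosen with earlier results of these data known. Alternatives were RLE size factors, DESeq2 1.42.0, limma 3.58.1 on log2(FPKM + 1) and log2(FPKM + 0.1), no filter, no fold limit, scaling to the 16 cardiomyocyte genes, counts without hemoglobin genes, a replicate block, all libraries in 1 fit and leaving out each library. Leaving out the endoderm-rich or the Myod1 and Myog libraries was chosen after seeing the data. Promoter windows came from RefSeq (GRCm38.p6) and were matched by symbol for 72 of the 98 genes.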

Additional observations from a re-analysis of the deposited data

Results flagged for a closer look

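For 7 potassium channel genes, every atrial library of E11.5H lay on one side of every ventricular library while every atrium-like library of HOs lay on the opposite side of every ventricle-like one. The difference between both chamber differences was tested as the interaction in edgeR, and none of the 7 passed the adjusted p threshold. On the log2 scale, the HO difference minus the E11.5H difference was -5.96 for Kcnh7 (adjusted p = 0.113), -4.01 for Kcnj3 (adjusted p = 0.0911) and -3.59 for Kcnj5 (adjusted p = 0.0880). For Kcnmb1 it was -3.92 (adjusted p = 0.216), for Kcnd2 -3.84 (adjusted p = 0.168) and for Kcnab1 -2.51 (adjusted p = 0.333), so that all 6 genes stood higher in atria of E11.5H and higher in ventricle-like parts of HOs. Kcne3 alone had the opposite order, at 4.06 (adjusted p = 0.19). The joint pattern was seen in 8.97% of the 78 members and in 2.39% of all 16496 genes tested for the interaction. No group of 3 was tested for single samples far from the others.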

How the results depend on the processing

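Between the E11.5H chambers 13 members were called, 11 to 13 without single libraries, 8 by limma on log2(FPKM + 1) and 0 with the 12 libraries in 1 fit. These are 20%, 16.2% to 19.4%, 12.3% and 0% of the tested members. Of all genes, 4.89%, 3.61% to 5.14%, 2.66% and 0.378% were called. Between HO parts the count of 0 became 1 by DESeq2 (Kcnj5) and 2 with scaling to the cardiomyocyte genes (Kcnk1 and Kcnk5), and was 0 without any single library. DESeq2 thus called 1.47% of the tested members against 0.361% of all genes. That scaling called 2.9% of the tested members against 7.93% of all genes. For atrium-like parts against atria, 22 became 36 by DESeq2, 43 with that scaling, and 9 to 32 without single libraries. These are 54.5%, 64.2% and 12.7% to 45.7% of the tested members, against 31.4%, 93% and 10.3% to 34.7% of all genes. The count was 33 by limma on log2(FPKM + 0.1) and 33 without the endoderm-rich libraries (49.3% and 41.2% of the tested members, against 28.2% and 24.1% of all genes). For ventricle-like parts against ventricles, 13 became 22 by DESeq2, 45 with that scaling, and 5 to 20 without single libraries. These are 33.3%, 68.2% and 6.58% to 26.9% of the tested members, against 25.1%, 90.5% and 7.01% to 23.9% of all genes. For the interaction, 0 became 10 by DESeq2, 5 and 2 by limma with pseudocounts of 1 and 0.1, 6 without the endoderm-rich libraries, 5 without the Myod1 and Myog libraries, and 0 to 3 without single libraries. In that order the shares of all genes were 2.71%, 0.54%, 0.273%, 1.27%, 1.66%, and 0.0117% to 1.31%. A limit of 30 counts left 67 expressed members and the limit of 10 in all 3 libraries of a group 66, against 78. Scaling to the cardiomyocyte genes turned the log2 fold change of atrium-like parts against atria positive for Kcna4 (1.26), Kcnab1 (2.30), Kcnd2 (0.37), Kcnd3 (1.86), Kcng2 (1.15), Kcnh2 (1.86), Kcnj11 (1.04), Kcnj2 (0.77), Kcnk3 (0.73), Kcnn2 (1.15) and Kcnq5 (1.73), and that of ventricle-like parts against ventricles for Kcng2 (1.15); this scaling sets the cardiomyocyte genes equal by construction. Kcnj2 between HO parts was 0.45 under it, and -1.48 to 0.31 without single libraries, with 0.06 without atrium-like replicate 1. The cause of the other changes was not tested. Same-numbered replicates deviated from their group means with correlations of 0.010, 0.021 and 0.045 in E11.5H and 0.018, 0.590 and 0.360 in HOs. Differently numbered libraries of both HO parts had correlations from -0.671 to 0.435. The highest of these, for atrium-like replicate 1 with ventricle-like replicate 3, exceeded the 0.360 of the same-numbered replicates 3. Per the study's methods, day 13 HOs in biological triplicate were cut into both parts. Whether same-numbered libraries came from the same hearts or HOs is not given in the sources used here. The main fits took them as unpaired. With a replicate block the counts were 12, 0, 16, 9 and 0 in the order above, and the members' median log2 fold change for ventricle-like parts was -0.03 against 0.28 without it. Under the block these were 18.5%, 0%, 23.9%, 13.6% and 0% of the tested members. The shares of all genes were 4.26%, 0%, 18.3%, 13.3% and 0.0303%. At this depth, 65 to 69 of the 98 members passed the low-count filter in a comparison of 2 groups.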

Other observations

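Summed by role, the channel genes gave the following totals, which were not tested. Inward rectifiers summed to 40.0 ± 4.02 FPKM in atria and 19.0 ± 1.05 FPKM in ventricles, while the totals of HOs were 15.0 ± 9.28 FPKM for atrium-like and 22.0 ± 2.88 FPKM for ventricle-like libraries (SD, n = 3 each). Voltage-gated pores summed to 53.5 ± 2.96 and 26.0 ± 0.987 FPKM in the chambers and to 9.68 ± 6.11 and 35.2 ± 4.76 FPKM in the parts, in the same order (SD, n = 3 each). Modifier subunits, mostly Kcng2, summed to 44.1 ± 2.36 FPKM in atria and 63.3 ± 2.19 FPKM in ventricles and in HOs to 10.9 ± 5.77 FPKM (atrium-like) and 28.5 ± 12.5 FPKM (ventricle-like; SD, n = 3 each). Two-pore channels had group means between 20.1 ± 0.421 FPKM in atria and 27.3 ± 2.93 FPKM in atrium-like parts (SD, n = 3 each), with Kcnk3 leading in E11.5H and Kcnk1 in atrium-like parts.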
